A study of Mus musculus with 365 samples.

Results

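The genes described here are 35 interferon-stimulated genes, whose transcripts accumulate in many cell types after an interferon signal. They were chosen by name as known members of that response, with earlier results of these data known. Matched by Entrez identifier, all 35 were found among the 23427 genes of the table. Each had reads in at least 1 cell. They are described in single progenitor cells of mouse bone marrow, cell by cell and by the microfluidic capture chip on which each cell was processed.

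The study profiled 2 sorted parts of the EPLM compartment, early progenitors with lymphoid and myeloid potential, in 152 Ly6D+ cells and 213 TN (triple negative) cells. Ly6D is a surface protein of lymphoid progenitors with B cell potential. Both groups came from femoral bone marrow of C57BL/6 Flt3Ltg mice, taken directly after sorting, so every cell developed in an animal with a transgene for Flt3 ligand, a growth factor that expands early progenitors. The labels give pools of 2 mice, no age, no treatment and no non-transgenic group, and do not tie mice to chips. The Ly6D+ cells fill chips 4, 5 and 6 (40, 60 and 52 cells) and the TN cells fill chips 1, 2 and 3 (75, 69 and 69 cells). The run label of each chip ends in what reads as a date, different for all 6 chips. Read so, the days are consecutive for chips 5 and 6 and for chips 1 and 2. TN chip 3 and Ly6D+ chip 4 fall in the same month, between those pairs. Each chip holds cells of 1 population, so effects of chip, day or mouse pool and of population cannot be told apart.

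Interferons are secreted proteins that signal through cell-surface receptors. Type I interferons, such as interferon alpha and beta, bind the receptor chains Ifnar1 and Ifnar2, whose kinases Jak1 and Tyk2 activate Stat2 and other signal transducers. Stat2 acts with Irf9 in a complex that binds interferon-stimulated response elements in promoters. Interferon gamma uses another receptor and acts through gamma-activated sites. The induced proteins sense or degrade foreign RNA, block translation of viral messages, or tune the signal itself, and haematopoietic stem and progenitor cells are known to respond to interferons.

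Promoters of 14 members show the response element in its letters. RefSeq promoter windows (build GRCm38.p6, 250 bases before to 50 after a start) matched 25 of 35 members, with 29 windows. The core searched, GAAANNGAAA on either strand with overlapping matches counted, was present in 15 of the 29 windows (51.7%), which belong to 14 members. It was present in 3.44% of all 32851 windows. The gamma-activated letters TTCNNNGAA, whose reverse complement is the same motif, were present in 5 of 29 windows (17.2%) and in 8.30% of all windows. The 5 windows with more than 1 core match are printed because they carry the element most plainly. Each is given as the 160 bases before the start, 5′ to 3′ on the gene's strand, with the matched letters in capitals.
Isg15: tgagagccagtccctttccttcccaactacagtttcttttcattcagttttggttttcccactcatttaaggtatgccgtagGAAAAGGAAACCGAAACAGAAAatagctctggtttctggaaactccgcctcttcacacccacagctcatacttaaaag
Oas1a: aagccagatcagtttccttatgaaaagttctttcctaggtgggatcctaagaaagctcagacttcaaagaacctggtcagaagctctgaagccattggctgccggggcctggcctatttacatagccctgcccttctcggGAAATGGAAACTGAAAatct
Ifit1: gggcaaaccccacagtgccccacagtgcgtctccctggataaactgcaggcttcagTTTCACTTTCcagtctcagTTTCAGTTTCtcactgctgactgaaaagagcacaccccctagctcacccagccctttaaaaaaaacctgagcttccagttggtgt
Ifit3: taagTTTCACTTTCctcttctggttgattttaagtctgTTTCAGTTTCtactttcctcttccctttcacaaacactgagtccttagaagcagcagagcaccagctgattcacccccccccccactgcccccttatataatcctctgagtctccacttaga
Gbp3: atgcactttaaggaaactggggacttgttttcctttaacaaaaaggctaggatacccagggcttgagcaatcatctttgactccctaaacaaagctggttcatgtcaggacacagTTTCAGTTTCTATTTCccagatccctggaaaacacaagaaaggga
The Isg15 stretch is chr4:156200819-156200978 (minus strand), Oas1a chr5:120907526-120907685 (minus strand), Ifit1 chr19:34640729-34640888 (plus strand), Ifit3 chr19:34583369-34583528 (plus strand) and Gbp3 chr3:142559884-142560043 (plus strand). The capitals read GAAA in Isg15 and Oas1a, and TTTC, its reverse complement, in Ifit1, Ifit3 and Gbp3. In Isg15 3 matches overlap in 1 run. These are matches of letters, not measured binding sites, and their coordinates belong to the sequence table, since the build of the counts was mm9.

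Chip totals lay between 35734620 and 61415823 gene reads, and the shallowest cell had 267852. Cells of the Ly6D+ chips 4, 5 and 6 averaged 2832, 2441 and 2786 detected genes, and those of the TN chips 1, 2 and 3 averaged 2609, 2510 and 2444. For all counts of detected genes, each cell was first thinned to 200000 reads, and detection means at least 5 thinned reads in a cell, equal to 25 CPM (reads relative to all gene reads of the cell or chip, on the usual CPM scale). Chip levels are CPM of the reads summed over a chip's cells. In such sums fewer cells with a transcript and less transcript per cell cannot be told apart, so the share of cells is given too. Of the markers of other cell types, C1qa, Camp, Retnlg, Cd3e, Gzma, Ncr1, Klf1 and Hba-a1 had no read. The neutrophil list (3 of 5 genes with a read) summed to at most 6.55 CPM on a chip. The T and NK list (2 of 5) reached 36.7 CPM on chip 4 and the erythroid list (1 of 4) 39.5 CPM on chip 1. Over the macrophage list (6 of 7 genes with a read) the summed level was 14.6, 137 and 44.5 CPM on Ly6D+ chips 4, 5 and 6, and 121, 98.8 and 165 CPM on TN chips 1, 2 and 3.

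The members stood highest on 3 of the 6 chips. The median member had 119 CPM on Ly6D+ chip 4, 287 on Ly6D+ chip 5 and 26.8 on Ly6D+ chip 6. It had 40.1 CPM on TN chip 1, 39.6 on TN chip 2 and 93.2 on TN chip 3. Of 35 members, 30 had their highest level on chip 5, 4 on chip 4 and 1 on chip 3. The lowest level was on chip 6 for 16 members, on chip 1 for 10, on chip 2 for 8 and on chip 3 for 1. Summed over all members, the levels were 5994, 12127 and 1653 CPM on Ly6D+ chips 4, 5 and 6, and 1755, 1833 and 4774 CPM on TN chips 1, 2 and 3. Both populations therefore held chips with high and low member levels. Chip 6 was the lowest by summed and by median CPM, although its cells were Ly6D+. By member it was near TN chips 1 and 2, above them for 17 and 13 of 35 members in CPM. In share of cells it was above them for 18 and 17 members.

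**Figure D1:**
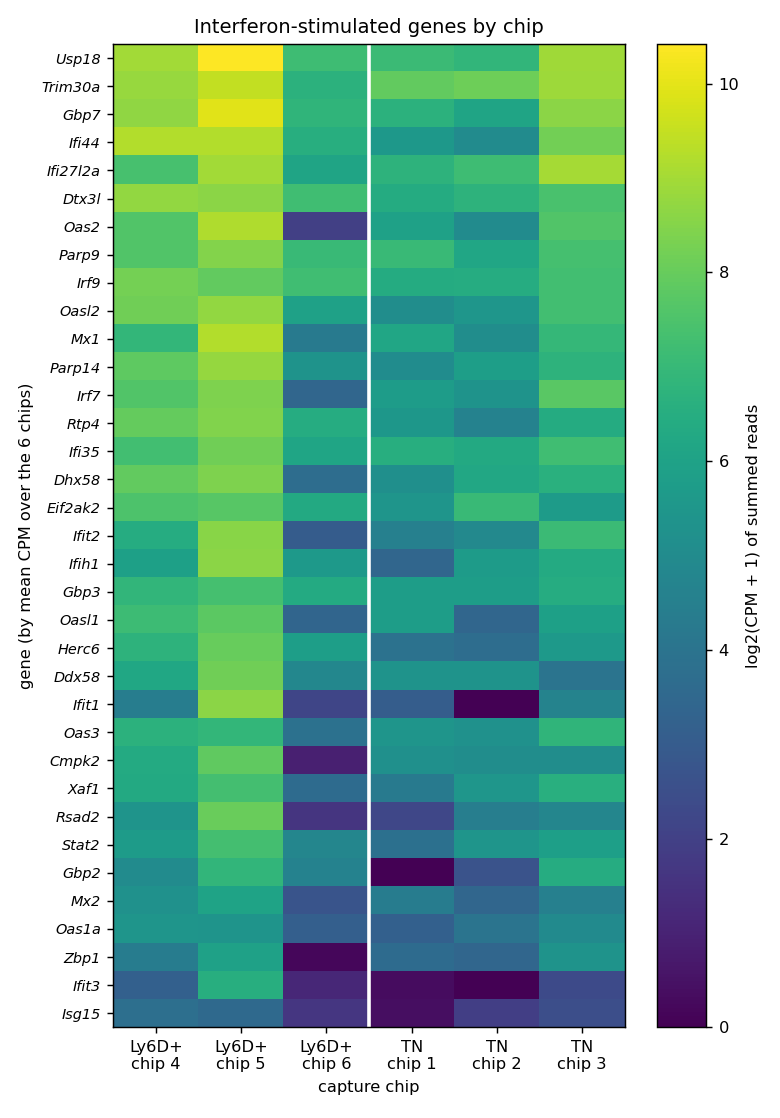
Level of each of the 35 members (rows, by mean CPM) on each capture chip (columns, Ly6D+ chips left of TN chips), as log2(CPM + 1) of reads summed over the chip's cells. Chip 5 is brightest for most genes, and chip 6 resembles TN chips 1 and 2 in its low median level of 26.8 CPM.

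Among regulators of the pathway, Usp18 had the highest mean level. Usp18 removes the ubiquitin-like protein Isg15 from its targets and dampens signalling at the type I receptor. Its level was 502, 1368 and 143 CPM on Ly6D+ chips 4, 5 and 6, and 136, 116 and 489 CPM on TN chips 1, 2 and 3. The share of cells with Usp18 was 75%, 55% and 19.2% on the Ly6D+ chips in the same order, and 20%, 24.6% and 52.2% on the TN chips. Chip 4 thus had the larger share of cells with the transcript, and chip 5 the higher level. Irf7, a factor that amplifies transcription of interferon genes, had 193, 339 and 9.84 CPM on chips 4, 5 and 6, and 52.7, 39.6 and 216 CPM on chips 1, 2 and 3. The Irf7 value of chip 6 was below all TN chips. Irf9, the DNA-binding partner of Stat2, varied less, with 304, 243 and 147 CPM on the Ly6D+ chips and 84.3, 86.3 and 154 CPM on the TN chips. Stat2 had 51.2, 159 and 26.8 CPM on the Ly6D+ chips and 13.3, 41.7 and 57.2 CPM on the TN chips.

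The members also include cytosolic sensors of foreign nucleic acid. Dhx58, a regulator among the RNA helicases, had 243, 339 and 12.2 CPM on Ly6D+ chips 4, 5 and 6, and 35.3, 74.8 and 96.7 CPM on TN chips 1, 2 and 3. Ifih1, the sensor of long double-stranded RNA, had 59.9, 386 and 49.1 CPM on the Ly6D+ chips and 10.0, 51.9 and 82.8 CPM on the TN chips. The helicase Ddx58, the sensor of RNA with a triphosphate end, was detected in 16.7% of all cells. It was the only sensor that was lower on chip 3, at 15.3 CPM, than on chips 1 and 2, at 40.1 and 39.8 CPM. Zbp1, a sensor of Z-form nucleic acid, had 19.9, 61.1 and 0.127 CPM on the Ly6D+ chips and 11.4, 9.93 and 39.4 CPM on the TN chips. On chip 6, Zbp1 was detected in 0 of 52 cells, a count that allows up to 5.77%. Limits from 0 cells are 3 divided by the number of cells. They apply to detection at 5 thinned reads, not to any read. Eif2ak2, a kinase that halts translation when it binds double-stranded RNA, ranged from 79.8 to 209.9 CPM on the Ly6D+ chips and from 42.2 to 134 CPM on the TN chips.

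The antiviral effectors included the 4 members with the largest differences between Ly6D+ chips 5 and 6, Oas2, Cmpk2, Ifit1 and Rsad2. Oas2, an enzyme that makes the second messenger activating RNase L, had 193, 585 and 2.96 CPM on Ly6D+ chips 4, 5 and 6, and 61.2, 31.7 and 193 CPM on TN chips 1, 2 and 3. Mx1, a dynamin-like GTPase for which C57BL/6 mice carry a defective allele, had 119, 594 and 18.4 CPM on the Ly6D+ chips and 71.2, 33.1 and 121 CPM on the TN chips. On chip 6, 1 cell held 90.6% of the Mx1 reads. The other Oas genes and Mx2 had the same order of Ly6D+ chips except Oas1a, whose levels on chips 4 and 5 were 41.6 and 41.5 CPM.

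Ifit1, Ifit2 and Ifit3 encode proteins that bind foreign messenger RNA or its partners, and the levels of Ifit1 and Ifit3 rested on few cells. Ifit1 had 20.1, 393 and 3.50 CPM on Ly6D+ chips 4, 5 and 6, in 5 of 40, 17 of 60 and 1 of 52 cells. On the TN chips 1, 2 and 3 it had 7.51, 0 and 24.1 CPM, in 2 of 75, 0 of 69 and 6 of 69 cells. The 17 cells of chip 5 are 28.3% of its cells (95% Clopper-Pearson interval 17.5 to 41.4). The 0 cells of chip 2 allow a share of up to 4.35%, by 3 over the number of cells and not by that interval. Ifit3 was detected in 2, 13 and 1 cells of chips 4, 5 and 6, and in 1, 0 and 3 cells of chips 1, 2 and 3. Both genes were thus found in more cells of chip 5 than of the other 5 chips together (14 cells for Ifit1 and 7 for Ifit3). Ifit2 was detected in more cells, 35% on chip 5 and 7.25% to 22.5% on the others.

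Rsad2 (viperin) makes a nucleotide that stops viral RNA synthesis, and its genomic neighbour Cmpk2 is a nucleotide kinase. Rsad2 had 40.997, 263 and 2.07 CPM on Ly6D+ chips 4, 5 and 6, and 3.71, 20.99 and 26.3 CPM on TN chips 1, 2 and 3. The TN chip 2 value came almost wholly from 1 cell, which held 99.1% of its Rsad2 reads. Cmpk2 had 80.7, 234 and 0.887 CPM on the Ly6D+ chips and stood level on the TN chips, at 36.2, 33.5 and 33.3 CPM. On chip 6 it was detected in 0 of 52 cells, a count that allows up to 5.77% at the detection limit. In 4 cells of chip 6 Cmpk2 had reads below that limit. Isg15, the ubiquitin-like modifier itself, had the lowest mean level of the set, with 12.9, 10.9 and 2.11 CPM on the Ly6D+ chips and 0.293, 2.84 and 4.68 CPM on the TN chips. It was detected in 10 of 40, 9 of 60 and 3 of 52 cells on the Ly6D+ chips. On the TN chips it was detected in 0 of 75, 2 of 69 and 3 of 69 cells. The 0 of 75 allows a share of up to 4% at the detection limit, and 4 cells of chip 1 had Isg15 reads below that limit. Herc6, the main ligase for Isg15 in mice, had 105, 251 and 56.4 CPM on the Ly6D+ chips and 14.04, 12.4 and 47.8 CPM on the TN chips.

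The members found in most cells were Ifi27l2a, Trim30a, Dtx3l, Gbp7 and Ifi35. Ifi27l2a, a small membrane protein, was detected in 82.5%, 78.3% and 51.9% of cells on Ly6D+ chips 4, 5 and 6, and in 48%, 60.9% and 92.8% on TN chips 1, 2 and 3. It is the 1 member whose highest level was on a TN chip, with 510 CPM on chip 3 against 502 CPM on chip 5. Trim30a, a regulator of innate signalling, had 445, 708 and 103 CPM on the Ly6D+ chips and 243, 279 and 470 CPM on the TN chips. Gbp7, a guanylate-binding GTPase of cell-autonomous defence, had 417, 1002 and 113 CPM on the Ly6D+ chips and 101, 66.9 and 393 CPM on the TN chips. Ifi44 had 597, 597 and 91.4 CPM on the Ly6D+ chips and 46.6, 31.3 and 294 CPM on the TN chips. Trim30a was detected in 38.5% of cells on chip 6 and in 52% on chip 1. Gbp2 rested on 1 cell of chip 5, which held 73.3% of its reads there, and had no read on chip 1 (0 of 75 cells, a count that allows up to 4%).

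The ubiquitin ligase Dtx3l and its partner Parp9, with Parp14, belong to 1 group of ADP-ribosylation proteins. Dtx3l had 419.8, 385 and 147 CPM on Ly6D+ chips 4, 5 and 6, and 84.8, 105 and 169 CPM on TN chips 1, 2 and 3. Parp9 had 190.2, 359.8 and 132 CPM on the Ly6D+ chips and 131, 71.05 and 164 CPM on the TN chips. Parp14 had 227, 436 and 39.998 CPM on the Ly6D+ chips and 32.6, 57.02 and 105 CPM on the TN chips. Rtp4, a transmembrane protein induced by interferon, had 248, 351 and 87.6 CPM on the Ly6D+ chips and 44.6, 23.7 and 84.1 CPM on the TN chips, so the populations did not overlap. They did not overlap for Herc6 either, and for 2 of 35 members in all, against 1949 of 14814 genes with a read (13.2%).

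Per length, in TPM, the length-scaled counterpart of CPM, from the deposited gene lengths (mean ± SD of 6 chips), Ifi27l2a stood highest with 1138 ± 917. Usp18 followed with 554 ± 588, and Ifi35, Trim30a, Ifi44 and Rtp4 with means between 190.4 and 215 TPM. Isg15 was lowest with 15.9 ± 14.7 TPM, next to Ifit3 with 19.1 ± 39.7. The SDs are as large as many of the means. All members were measured on the same chips, so these SDs do not decide whether neighbours in this order differ, which was not tested.

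Levels are uncertain for members with close copies, since how reads were shared between copies was not given in the sources used here. Ifit3b, the copy of Ifit3, had 1.46, 19.3 and 0 CPM on Ly6D+ chips 4, 5 and 6, and 0, 0 and 0.0198 CPM on TN chips 1, 2 and 3. Oas1g, the copy of Oas1a, had 11.6, 16.2 and 0.612 CPM on the Ly6D+ chips and 0.488, 0.328 and 8.58 CPM on the TN chips. Both copies were highest on chip 5, as were most members. The same doubt holds for Gbp2, Gbp3 and Gbp7, Trim30a and Ifi27l2a. The libraries do not mark the strand, so antisense transcripts would be counted with a member.

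Most cells contained some members and few contained most of them. The mean number of members per cell was 14.8, 15 and 5.79 on Ly6D+ chips 4, 5 and 6, and 5.55, 5.70 and 10.2 on TN chips 1, 2 and 3. The medians were 14.5, 12 and 5 on the Ly6D+ chips, and 5, 5 and 9 on the TN chips. Chips 4 and 5 had nearly equal means but differed in shape, with quartiles of 11 and 19.2 on chip 4 and of 8 and 21.5 on chip 5. Over all cells, 5 had no member and the most members in a cell was 33. Over chips, the mean was 11.9 ± 5.27 in Ly6D+ and 7.15 ± 2.65 in TN (SD, n = 3 each), a difference of 4.73 that is smaller than the SD of the Ly6D+ chips. It lay between 3.16 and 7.77 when each chip was left out in turn, with the highest value without Ly6D+ chip 6.

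**Figure D2:**
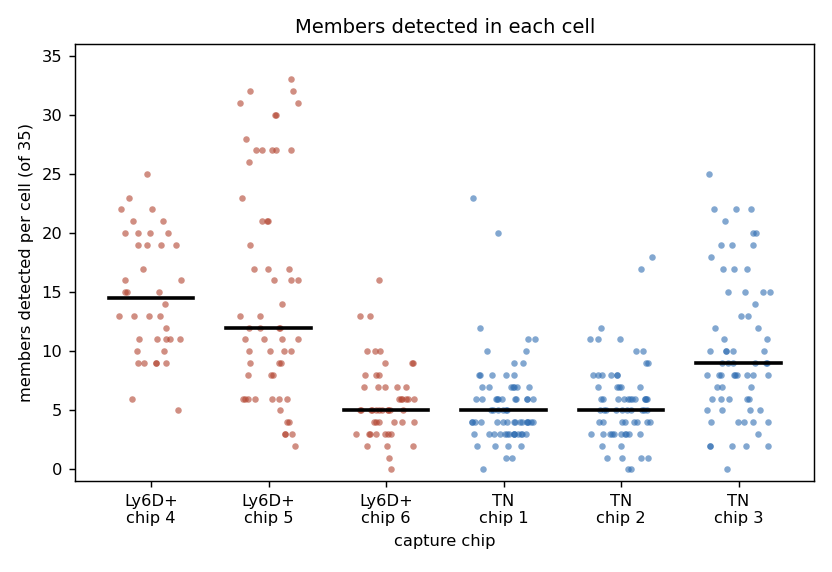
Number of the 35 members detected in each of the 152 Ly6D+ and 213 TN cells (1 point a cell, after thinning to 200000 reads) by capture chip, Ly6D+ chips left of TN chips; black bars are medians. Medians lie at 14.5, 12 and 5 on chips 4, 5 and 6 and at 5, 5 and 9 on chips 1, 2 and 3, and points above 25 occur on chip 5.

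Cells with 10 or more members made up 33 of 40, 40 of 60 and 6 of 52 cells on Ly6D+ chips 4, 5 and 6, and 7 of 75, 8 of 69 and 30 of 69 on TN chips 1, 2 and 3. Cells with 20 or more numbered 10, 18 and 0 on the Ly6D+ chips and 2, 0 and 7 on the TN chips, 37 in all. On chip 4 members were spread over the cells, with no cell under 5 members, while chip 5 joined cells with few members to 14 cells above 25, a count that no cell of another chip exceeded. Those 14 cells held 61.2% of the member reads of chip 5. All 14 contained Usp18, Mx1, Ifih1, Xaf1, Eif2ak2, Ifi44, Parp9, Trim30a, Gbp7 and Ifi27l2a, while 11 contained Ifit1 and 11 contained Rsad2. Of the other 46 cells of chip 5, 10 contained Mx1, 5 contained Ifih1 and 33 contained Gbp7. These genes are part of the count that sets the cells apart, so the numbers are a description.

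Depth was similar in both kinds of chip 5 cells, with a median of 1022259 reads in the 14 cells and 978319.5 in the other 46. Detected genes had a median of 2726 in the 14 cells and 2400.5 in the others. The summed level of 8 stress and dissociation genes had a median of 2286 CPM in the 14 cells and 1433 CPM in the others, and its part in the counts was not tested. Over all chips that list summed to 1595, 2582 and 1782 CPM on Ly6D+ chips 4, 5 and 6, and 1998, 1845 and 2639 CPM on TN chips 1, 2 and 3. Within a chip, the number of members correlated weakly with the number of detected genes (Spearman rho from 0.03 to 0.38 over the 40 to 75 cells of a chip) and with reads (from −0.01 to 0.21).

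Chips of 1 population were set against each other by the log2 difference of CPM plus 1, which has no replicate check. Since the members were chosen with earlier results of these data known, their shares beside all genes are a description. On chip 5 over chip 6, 33 of 35 members were at least 2-fold higher, against 18.1% of 11797 genes, and the median log2 difference was 3.01 for members and −0.05 for all genes. On chip 4 over chip 6, 29 members were at least 2-fold higher against 17.6% of genes, and on chip 5 over chip 4, 16 members against 18.2%. The largest values on chip 5 over chip 6 were 7.21 for Oas2, 6.96 for Cmpk2, 6.45 for Ifit1 and 6.43 for Rsad2. The smallest were 0.72 for Irf9 and 0.99 for Gbp3, the 2 members under 2-fold.

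In TN cells, 22 of 35 members were at least 2-fold higher on chip 3 over chip 1, against 12.6% of genes, with a median log2 difference of 1.65 for members and −0.13 for all genes. On chip 3 over chip 2 there were 20 such members against 12.8% of genes. On chip 2 over chip 1 there were 8 against 15.4%, with medians of −0.01 for members and −0.03 for all genes. The median member thus stood level between chips 1 and 2 and was higher on chip 3 than on both. On chip 3 over chip 1, Ifih1 had a log2 difference of 2.93, Ifi44 2.63, Ifit2 2.57 and Ifi27l2a 2.26. Gbp2, with no read on chip 1, had 6.44 on this scale, a value set by the added constant. Ddx58 was lower on chip 3, at −1.34. Mx1, Mx2, Oasl1 and Cmpk2 had 4.94, 3.34, 4.41 and 6.96 on chip 5 over chip 6, and 0.75, 0.14, 0.12 and −0.12 on chip 3 over chip 1. Whether the set of genes differs between these chip pairs was not tested.

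No member passed the test between populations. Of 11797 genes, 24 (0.203%) were called in Ly6D+ over TN at an adjusted p under 0.05 by edgeR's quasi-likelihood test over chip sums with Benjamini-Hochberg adjustment, and 0 of 35 members were called. At an unadjusted p under 0.05 there were 6 members and 988 genes. Without Ly6D+ chip 4, 5 or 6 the test called 4, 23 or 2 genes, and without TN chip 1, 2 or 3 it called 8, 12 or 7. The log2 fold change was positive for 34 of 35 members and for 6005 of all 11797 genes, with medians of 1.45 for members and 0.01 for all genes. Ifi27l2a was the exception at −0.04. Single chips moved these values: without Ly6D+ chip 5 the median was 0.35 and 25 members were positive, without Ly6D+ chip 6 it was 1.92, and without TN chip 3 it was 2.05.

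Rtp4 averaged 229 ± 133 CPM in Ly6D+ cells and 50.8 ± 30.7 CPM in TN cells (SD, n = 3 chips each), with a log2 fold change of 2.19 ± 0.63 (SE; adjusted p = 0.304 by edgeR's quasi-likelihood test with Benjamini-Hochberg adjustment). Herc6 averaged 137 ± 101 CPM in Ly6D+ and 24.7 ± 19.99 CPM in TN, with a log2 fold change of 2.48 ± 0.76 (SE; adjusted p = 0.346 by the same edgeR test). Usp18 averaged 671 ± 629.6 CPM in Ly6D+ and 247 ± 209.9 CPM in TN, with a log2 fold change of 1.45 ± 0.84 (SE). The spread between Ly6D+ chips was thus nearly as large as their mean for Usp18. DESeq2 called 550 of 14814 genes and 2 of 34 tested members, Rtp4 (adjusted p = 0.0163) and Herc6 (adjusted p = 0.0215). Limma-trend on means over cells called 326 of 11797 genes and 2 of 35 members, Rtp4 (adjusted p = 0.0436) and Gbp7 (adjusted p = 0.0400).

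Lineage was then read from marker transcripts within each chip, which keeps chip and class apart. Ebf1, the factor that starts the B cell programme, marked 18, 21 and 24 cells of Ly6D+ chips 4, 5 and 6. Ebf1-positive cells held 15.1, 15.8 and 6.08 members on these chips, against 14.6, 14.6 and 5.54 in the other Ly6D+ cells. The difference between chips 5 and 6 was thus larger than that between classes on any chip. Ebf1-positive cells held 2637, 2451 and 2619 genes in all on average, against 2991, 2435 and 2929, whose part in the counts was not tested. Shares with 20 or more members were 4 of 18, 8 of 21 and 0 of 24 in Ebf1-positive cells, against 6 of 22, 10 of 39 and 0 of 28 in the others. By edgeR's quasi-likelihood test with chip as a block, 1 of 10644 genes (0.00939%) and 0 of 35 members were called, with 5 members and 485 genes at an unadjusted p under 0.05. DESeq2 called 526 of 13737 genes and 4 of 35 members, and limma-trend 18 of 10644 genes and 0 of 35 members. The log2 fold change was positive for 26 of 35 members and 4815 of 10644 genes, with medians of 0.50 and −0.10. Without chip 4, 5 or 6 the member median was 0.13, 0.30 or 0.10.

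Usp18 had 769, 1978 and 219.7 CPM in Ebf1-positive cells of chips 4, 5 and 6, against 295, 1004 and 76.9 CPM in the other Ly6D+ cells. It was higher in Ebf1-positive cells on 3 of 3 chips, with a log2 fold change of 1.37 ± 0.20 (SE; adjusted p = 0.933 by edgeR's quasi-likelihood test with Benjamini-Hochberg adjustment, and 0.00127 by DESeq2). Gbp7 had 564, 1517 and 161 CPM in Ebf1-positive cells, against 304, 696 and 70.2 CPM in the others, also higher on 3 of 3 chips. Its log2 fold change was 1.15 ± 0.21 (SE; adjusted p = 0.999 by edgeR's quasi-likelihood test with Benjamini-Hochberg adjustment, and 0.00892 by DESeq2). The tools therefore part on these genes. DESeq2 also called Ifit3 and Xaf1.

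In TN cells, granule protein transcripts mark myeloid progenitors. Mpo or Prtn3 was detected in 38 of 75, 30 of 69 and 37 of 69 cells of chips 1, 2 and 3. These cells held 6.08, 6.77 and 10.3 members, against 5.00, 4.87 and 10.1 in the other TN cells. They also held more genes in all (2922, 2923 and 2728 on average, against 2287, 2193 and 2116), whose part in the counts was not tested. By edgeR's quasi-likelihood test, 1 of 10958 genes (0.00913%) and 0 of 35 members were called, with 4 members and 736 genes at an unadjusted p under 0.05. DESeq2 called 682 of 13888 genes and 2 of 35 members (Irf7 lower, Gbp2 higher). Limma-trend called 1979 of 10958 genes and 4 of 35 members, all higher (Trim30a, Gbp3, Gbp7 and Ifi35). Irf7 had 16.1, 27.3 and 149 CPM in Mpo- or Prtn3-positive cells, against 92.8, 50.1 and 308 CPM in the others. It was lower on 3 of 3 chips, with a log2 fold change of −1.56 ± 0.47 (SE; adjusted p = 0.709 by edgeR's quasi-likelihood test with Benjamini-Hochberg adjustment).

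H2-Aa, a chain of MHC class II, marks dendritic cell progenitors and was detected in 19, 21 and 15 cells of TN chips 1, 2 and 3. H2-Aa-positive cells held 5.16, 5.10 and 9.73 members, against 5.68, 5.96 and 10.3 in the other TN cells. They also held fewer genes in all (2140, 1985 and 1956 on average, against 2768, 2740 and 2580), whose part was not tested. By edgeR's quasi-likelihood test, 4 of 10842 genes (0.0369%) and 0 of 35 members were called, with 2 members and 630 genes at an unadjusted p under 0.05. DESeq2 called 866 of 13888 genes and 2 of 35 members (Mx2 and Ddx58, both lower). Limma-trend called 1395 of 10842 genes and 1 of 35 members. That member was Irf7, with 107, 67.2 and 289 CPM in H2-Aa-positive cells against 36.8, 28.4 and 196 CPM in the others. Irf7 was detected in 31.6%, 33.3% and 66.7% of H2-Aa-positive cells, against 8.93%, 18.8% and 42.6% of the others. The median log2 fold change was −0.09 for members and −0.45 for all genes, and 0.03 and −0.33 with DESeq2's size factors, a setting that moved both medians alike. Without chip 1 the member median was 0.10. Irf7 was higher on 3 of 3 chips, with a log2 fold change of 1.35 ± 0.55 (SE; adjusted p = 0.834 by edgeR's quasi-likelihood test with Benjamini-Hochberg adjustment, and 0.0290 by limma-trend).

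Dntt, the terminal transferase of early lymphoid cells, was detected in 22, 24 and 19 cells of TN chips 1, 2 and 3. Dntt-positive cells held 5.68, 6.79 and 11.8 members, against 5.49, 5.11 and 9.58 in the other TN cells. They also held more genes in all (2888, 2797 and 2494 on average, against 2493, 2357 and 2425), whose part was not tested. Summed member levels were 1385, 1868 and 6410 CPM in Dntt-positive cells, against 1910, 1814 and 4146 CPM in the others. By edgeR's quasi-likelihood test, 0 of 10930 genes (0.0%) and 0 of 35 members were called, with 4 members and 849 genes at an unadjusted p under 0.05. DESeq2 called 810 of 13888 genes and 1 of 35 members (Zbp1, lower), and limma-trend 540 of 10930 genes and 0 of 35 members. Parp9 had 160.5, 118 and 318 CPM in Dntt-positive cells, against 119, 45.7 and 105 CPM in the others. It was higher on 3 of 3 chips, with a log2 fold change of 1.16 ± 0.38 (SE; adjusted p = 0.592 by edgeR's quasi-likelihood test with Benjamini-Hochberg adjustment). On chip 3, 4 of 19 Dntt-positive cells (21.1%) had 20 or more members, against 3 of 50 of the others (6.0%). Such cells were thus a larger share of the Dntt-positive class there and occurred in both classes.

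Siglech, a surface lectin of plasmacytoid dendritic cells, the main makers of type I interferon, was detected in 7, 12 and 7 cells of Ly6D+ chips 4, 5 and 6, and in 7, 6 and 6 cells of TN chips 1, 2 and 3. Siglech-positive cells held 14.6, 13.4 and 7.57 members on the Ly6D+ chips, against 14.9, 15.4 and 5.51 in the Siglech-negative cells. On the TN chips they held 6.14, 5.67 and 12 members, against 5.49, 5.70 and 10.0 in the negative cells. Siglech-positive cells also held more genes on average, 2837, 2598 and 3071 on chips 4, 5 and 6, against 2831, 2401 and 2742. On chips 1, 2 and 3 they held 2965, 2709 and 2681 genes, against 2572, 2492 and 2422, and the part of this was not tested. By edgeR's quasi-likelihood test over the 6 chips, 5 of 10277 genes (0.0487%) and 0 of 34 tested members were called, with 6 members and 1258 genes at an unadjusted p under 0.05. DESeq2 called 2080 of 14814 genes and 9 of 35 members, of which 1 was higher (Trim30a) and 8 were lower. Limma-trend called 156 of 10277 genes and 1 of 34 tested members (Trim30a, higher). The median log2 fold change was −0.48 for members and −0.72 for all genes, and −0.37 and −0.61 with DESeq2's size factors, so directions here are relative to a shifted median. Trim30a had 727, 932 and 245 CPM in Siglech-positive cells of chips 4, 5 and 6, against 379, 639 and 81.04 CPM in the negative cells. On chips 1, 2 and 3 it had 289, 291 and 557 CPM in positive cells, against 238, 277 and 461 CPM in negative cells. It was higher on 6 of 6 chips, with a log2 fold change of 0.78 ± 0.24 (SE; adjusted p = 0.268 by edgeR's quasi-likelihood test with Benjamini-Hochberg adjustment). A test of whether the Siglech difference varied between populations called 0 of 10277 genes and 0 members by edgeR, with 357 genes and 5 members at an unadjusted p under 0.05; no other tool was run.

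**Figure D3:**
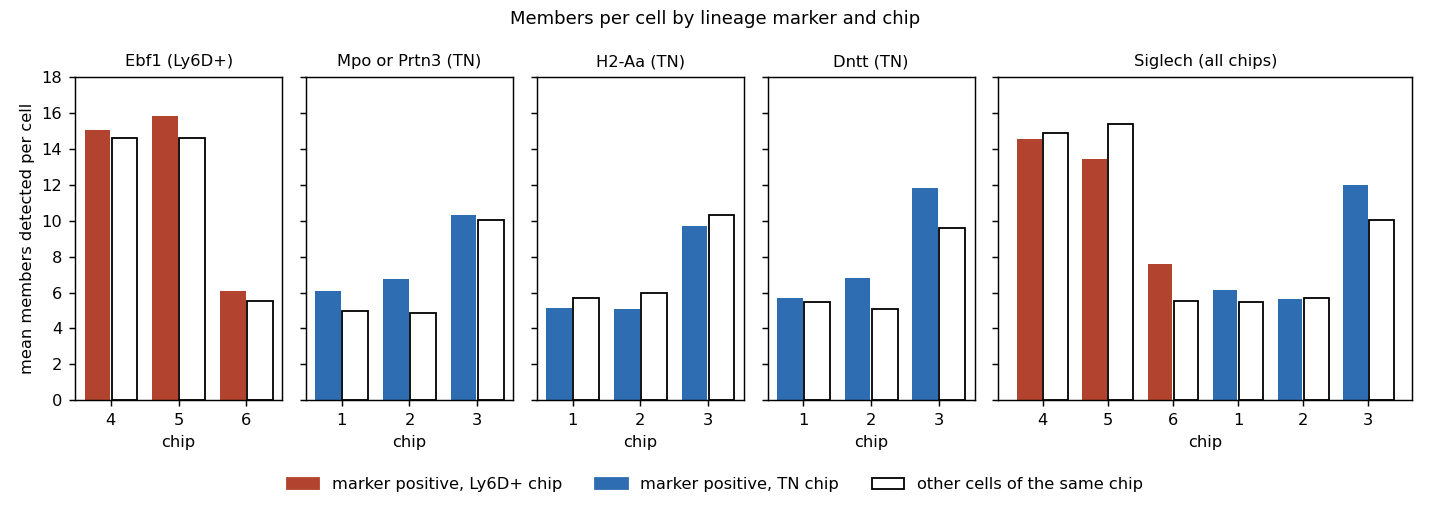
Mean number of the 35 members detected per cell in marker-positive cells (filled bars) and in the other cells of the same chip (open bars), for 5 lineage markers; each bar is the mean over the cells of 1 class on 1 chip. For every marker the bars of chips 4 and 5, or of chip 3 among TN chips, stand above those of the remaining chips in both classes, such as 15.8 and 14.6 members on chip 5 for Ebf1.

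Cells with 20 or more members were found with each marker. Among the 18 such cells of Ly6D+ chip 5, 8 contained Ebf1, 18 Dntt, 6 H2-Aa, 3 Mpo or Prtn3 and 2 Siglech. Over all 60 cells of chip 5, 35% contained Ebf1, 86.7% Dntt, 20% H2-Aa, 13.3% Mpo or Prtn3 and 20% Siglech. Among the 10 cells of Ly6D+ chip 4, 4 contained Ebf1, 10 Dntt, 0 H2-Aa, 2 Mpo or Prtn3 and 2 Siglech. Over all 40 cells of chip 4, the shares were 45% for Ebf1, 97.5% for Dntt, 7.5% for H2-Aa, 10% for Mpo or Prtn3 and 17.5% for Siglech. Among the 7 cells of TN chip 3, 0 contained Ebf1, 4 Dntt, 1 H2-Aa, 3 Mpo or Prtn3 and 1 Siglech. Over all 69 cells of chip 3, the shares in the same order were 1.45%, 27.5%, 21.7%, 53.6% and 8.70%. The 2 cells of TN chip 1 both contained Mpo or Prtn3, as did 50.7% of all 75 cells of that chip.

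Members differed in how much of the rest of the set accompanied them. On Ly6D+ chip 5, cells with Ifit3 held a median of 27 other members and cells without it 10. Cells with Ifit1, Rsad2, Isg15, Ifih1 or Zbp1 held a median of 26 others, against 10 to 11 in cells without. Cells with Usp18 held 20 others against 8, and cells with Gbp7 held 13 against 8. Members found in few cells were therefore mostly found in the cells with the most members, although the 15 cells with Mx2 held a median of 20 others. On TN chip 3, cells with Ifit1 held a median of 19 others against 8, and cells with Trim30a 9 against 4. On Ly6D+ chip 6, cells with Usp18 held a median of 5.5 others against 5 in cells without, while the 5 cells with Oasl2 held 12 against 5 and the 9 cells with Rtp4 held 8 against 5.

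**Figure D4:**
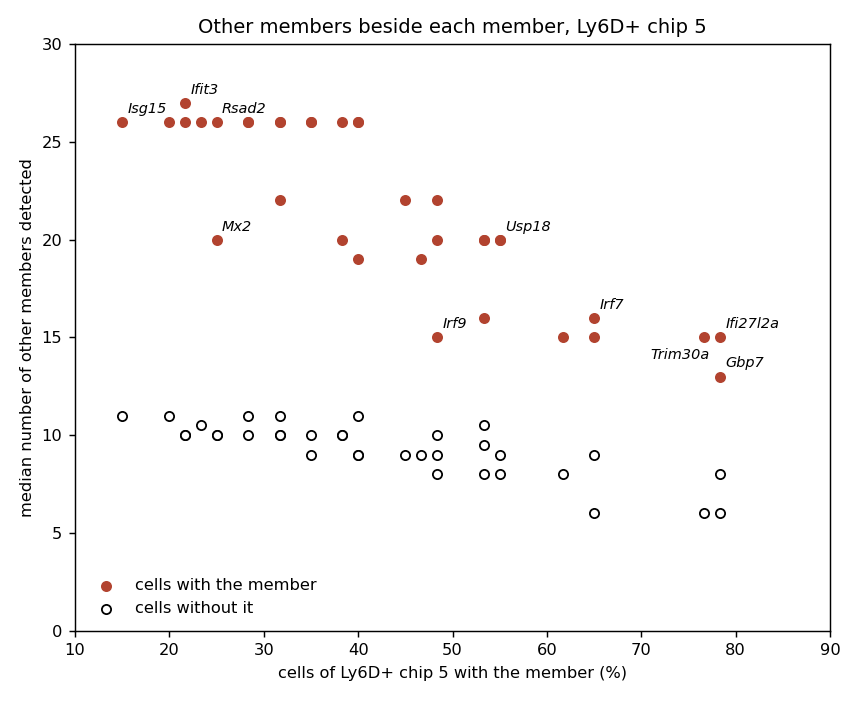
For each of the 35 members, the share of the 60 cells of Ly6D+ chip 5 that contain it (horizontal axis, %) and the median number of other members in cells with it (filled) and without it (open). Filled points fall from 27 other members for Ifit3 to 13 for Gbp7, while open points stay between 6 and 11.

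Pairs of members varied together most on chips 5 and 3. Over 210 pairs of the 21 members found in 20% or more of cells, the median Spearman rho was 0.12, 0.35 and 0.10 on Ly6D+ chips 4, 5 and 6 (40, 60 and 52 cells), and 0.10, 0.09 and 0.23 on TN chips 1, 2 and 3 (75, 69 and 69 cells). Over all pairs of genes with the same detection the medians were 0.02, 0.09 and 0.04 on the Ly6D+ chips and 0.07, 0.09 and 0.08 on the TN chips. Chip 4 thus had many members per cell but a lower median rho between them than chips 5 and 3. Its member median of 0.12 was above its median of 0.02 for all pairs of genes. Cells of a chip share its processing, and the values are given as a description.

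The genes most like the members were chosen among 4603 genes by the mean over the 6 chips of the within-chip Spearman rho with the number of members per cell. Ifitm3, a membrane protein that blocks virus entry, led with a mean rho of 0.47, and Ube2l6, the conjugating enzyme for Isg15, followed with 0.43. Others were Gm12250, Ly6a, Phf11b, Igtp, Gm1966, Daxx, Ifi203, Ifi47 and Olfr56, with means from 0.33 to 0.37. Ifitm3 had 486, 903 and 155 CPM on Ly6D+ chips 4, 5 and 6, and 206, 186 and 749 CPM on TN chips 1, 2 and 3. Ube2l6 had 268, 322 and 39.4 CPM on the Ly6D+ chips and 72.8, 37.5 and 119 CPM on the TN chips. Both were highest on chip 5, with Ifitm3 lowest on chip 6 and Ube2l6 lowest on chip 2.

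Transcripts of the interferon genes on the ligand list were nearly absent, and interferon genes outside that list were not looked up. Of 8 ligand genes, 7 had no read in any cell (Ifna1, Ifna2, Ifna4, Ifnb1, Ifne, Ifnl2 and Ifnl3). Ifng had reads in 2 cells, with 61 reads in a cell of Ly6D+ chip 4 that contained 14 members and 71 reads in a cell of Ly6D+ chip 5 that contained 27. The receptors were present on every chip except Ifnlr1, which had no read. Summed over the list, receptors had 579.5, 687 and 747 CPM on Ly6D+ chips 4, 5 and 6, and 453, 772 and 443 CPM on TN chips 1, 2 and 3. Ifnar1 had 187, 251 and 272 CPM on the Ly6D+ chips and 171, 224 and 155 CPM on the TN chips. The receptor levels thus did not follow the chip order of the members.

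Downstream, Jak1, the kinase shared by the receptors, had 409, 324 and 337 CPM on Ly6D+ chips 4, 5 and 6, and 316, 238 and 253 CPM on TN chips 1, 2 and 3. The feedback inhibitor Socs1 was detected in 1.10% of cells. Sensor genes outside the set summed to 1232, 1050.5 and 779 CPM on the Ly6D+ chips and 959, 907 and 956 CPM on the TN chips. Of 47 further induced genes, cells contained 23.1, 21.9 and 16.3 on the Ly6D+ chips and 15.2, 14.9 and 18.2 on the TN chips. Cxcl10, a chemokine of the response, was detected in 6 of the 14 cells of chip 5 above 25 members and in 1 of the other 46. In Ly6D+ over TN, edgeR's quasi-likelihood test called 0 of 5 receptor, 0 of 13 signalling, 0 of 8 sensor and 0 of 45 further induced genes tested, with 0, 2, 0 and 4 at an unadjusted p under 0.05. DESeq2 called 0, 1, 0 and 2 genes of these lists (550 of 14814 over all genes). Limma-trend called 0, 1, 0 and 5 (326 of 11797 over all genes).

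**Figure D5:**
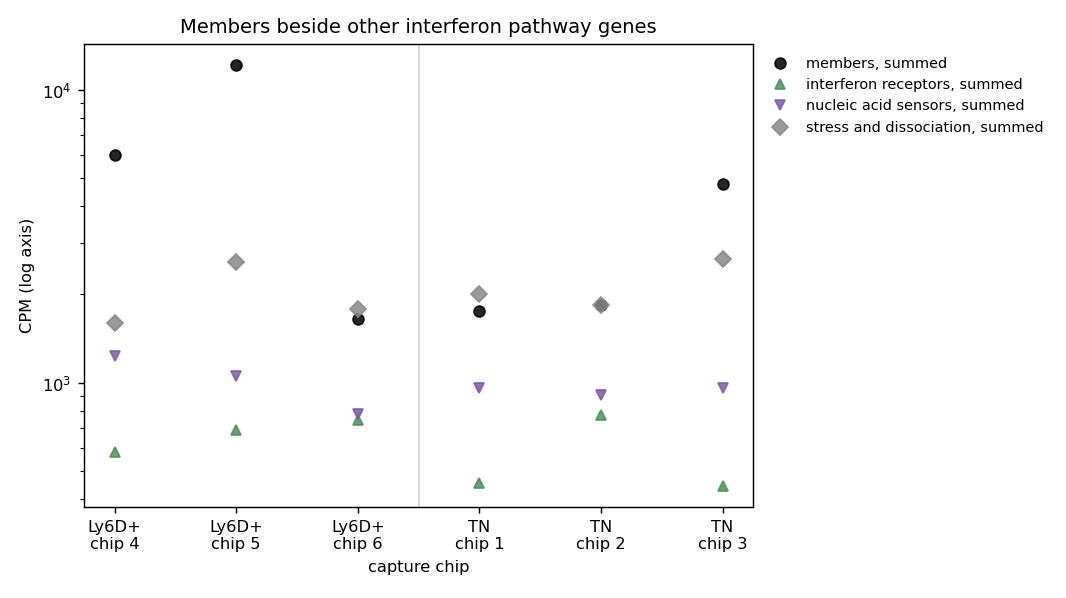
Level on each capture chip (CPM, log axis) of the 35 members summed and of the summed receptor, sensor and stress lists; each point is 1 chip and Ly6D+ chips are left of TN chips. The members run from 1653 to 12127 CPM, while the receptors lie between 443 and 772 CPM.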

How the data were processed

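The values deposited by the authors are raw counts of reads for each gene in each cell, with no normalization, beside a column of gene lengths in bases. The build mm9 and the tool R 3.2.0 are named per the submitters' processing notes. Aligner, read counter, annotation and strand setting were not given in the sources used here. Full-length cDNA was amplified by template switching and made into Nextera XT libraries, per the labels' protocols, which name no molecular identifiers, so intervals and limits from counts of 0 cover counting error only. Per the series' design text, cells with low mapping, few counts or fewer than 800 genes were removed before deposit; no further cell was left out. Nothing is stated about doublets, for which no caller was run. No pair of cells had identical counts.

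Symbols came by Entrez identifier from a RefSeq table (GRCm38.p6) for 23334 of 23427 genes. Promoter letters came from RefSeq tables of that build. All members and gene lists were chosen with earlier results of these data known.

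Reads were summed per chip, the replicate (3 per population), or per chip and class of cell, and compared by edgeR's quasi-likelihood F-test (version 4.0.16, R 4.3.3; TMM, filterByExpr, Benjamini-Hochberg adjusted p under 0.05, standard error as the log2 fold change over the square root of F). Classes of 1 chip were compared with chip as a block, since they share that chip. Because nothing ties chips to mice, p-values of Ly6D+ over TN measure chip-to-chip spread, which may be technical. With chip as a block, p-values of the class contrasts measure how the class difference varied between chips. Alternatives were DESeq2 1.42.0, limma-trend 3.58.1 on means of log2(CPM+1) over cells, DESeq2's size factors, no filter, other class and detection limits, chips left out in turn and cells under 1500 genes left out. DESeq2 was run without filterByExpr, on 13737 to 14814 genes, and limma-trend on the genes that edgeR tested. Cells were thinned to 200000 reads with Python 3.11.15 and numpy 2.4.6. The edgeR steps were also run on simulated counts with the same dispersion for every gene. That run checks the steps and not their power for these members. Named members were those with the highest mean CPM and those where 1 cell or chip decides the value; members named for a call by another tool, and the 14 cells of chip 5, were chosen after their values were seen. Pathway genes came from fixed lists, with Sting1, Cgas and Ifi211 matched by synonym. Depth ranged from 267852 reads in the shallowest cell to 61415823 on the deepest chip. Some listed genes are not reported here.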

Additional observations from a re-analysis of the deposited data

How the results depend on the processing

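The number of genes called differed more by tool than by any other setting. The tools also differed in genes fitted, 13737 to 14814 by DESeq2 and 10277 to 11797 by limma-trend and edgeR's main setting. In Ly6D+ over TN, 24 genes were called by edgeR, 550 by DESeq2 and 326 by limma-trend, with 2 members called by each of the other tools, and 2 to 23 genes when each chip was left out in turn. For Mpo or Prtn3, edgeR called 1 gene, DESeq2 682 genes and 2 members, limma-trend 1979 genes and 4 members, and 2 genes were called with the class set at 1 or at 20 thinned reads, with 0 to 1 when chips were left out (0 without chip 1 or 2). For H2-Aa, edgeR called 4 genes, and 10 with DESeq2's size factors, with no filter or with the class at 20 thinned reads, DESeq2 866 genes and 2 members, limma-trend 1395 genes and 1 member, and 3 to 9 genes when chips were left out (9 without chip 1). For Dntt, edgeR called 0 genes, and 1 with the class at 1 or at 20 thinned reads, DESeq2 810 genes and 1 member, limma-trend 540 genes, and 0 to 1 when chips were left out (1 without chip 2 or 3). For Ebf1, edgeR called 1 gene, and 2 with the class at 1 thinned read, DESeq2 526 genes and 4 members, limma-trend 18 genes, and 0 to 1 when chips were left out (0 without chip 5). For Siglech, edgeR called 5 genes, 8 with the class at 1 thinned read and 2 at 20, DESeq2 2080 genes and 9 members, limma-trend 156 genes and 1 member, and 0 to 3 when chips were left out (3 without chip 2, 0 without any other). Without the replicate block, edgeR called 5 genes for Mpo or Prtn3, 5 for H2-Aa, 2 for Dntt, 1 for Ebf1 and 48 for Siglech. Under every edgeR setting no member was called. Directions also differed by tool, with 264 higher and 418 lower for Mpo or Prtn3 by DESeq2 against 1893 and 86 by limma-trend, and 212 higher and 1868 lower for Siglech by DESeq2 against 146 and 10 by limma-trend. The cause of these differences was not tested. On means over cells of log2(CPM+1), a setting added after the data were seen, 9 members (and 123 of 11797 genes) were at least 2-fold higher on chip 5 over chip 4, against 16 (and 2143 genes) on sums, and 4 members were 2-fold lower, against 0. On chip 2 over chip 1, 0 members (and 212 genes) were higher, against 8 (and 1820) on sums, and 2 were lower, against 3. The difference in members per cell was 4.73, from 3.66 to 5.13 over the detection limits, thinning and cell filter tried, and from 3.16 to 7.77 when chips were left out. With 3 chips a population and 6 to 12 Siglech-positive cells a chip, few chips and cells limit the precision.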
